A study of Homo sapiens with 12 samples.

Results

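The comparison described here sets HSC-3 cells that received cyclopiazonic acid (CPA) together with synta-66 against HSC-3 cells left untreated. HSC-3 is an established human oral squamous carcinoma line. The members were chosen by their labels alone and are 8 of the 12 libraries of the study, 4 in each group. The treated group had 25 µM CPA for 3 h in the presence of synta-66, an inhibitor of ORAI calcium channels at a dose that the sources used here do not give. The labels give the untreated group no agent and name no vehicle for it. The other 4 libraries are from cells given the same CPA without the inhibitor, and their values are quoted beside the comparison only to place it. Synta-66 without CPA is not a group analysed here, so what the inhibitor does without CPA cannot be told apart from what it does to CPA-treated cells. Nothing in the labels ties the 4 libraries of a group to separate cultures. The p-values therefore reflect the spread between these samples alone, and that spread may be technical.

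CPA blocks the SERCA pumps that load the endoplasmic reticulum with calcium. When the store empties, STIM proteins in its membrane open ORAI channels of the plasma membrane, and calcium enters the cell. Many chaperones of the endoplasmic reticulum need calcium, so an emptied store also disturbs protein folding and sets off the unfolded protein response, which runs through the sensors PERK, IRE1 and ATF6 to chaperone, degradation and secretory transport genes and to the ATF4 and CHOP arm of stress genes. With the ORAI channels inhibited, the comparison asks which part of the response to store depletion remains when the entry of calcium is blocked.

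Reads assigned to genes numbered from 2819486 to 5458858 per library over the 12 libraries, which was 3.58% to 9.4% of the uniquely aligned reads. Many coding genes had few reads of their own and more at an annotated feature that overlaps their exons on the other strand. GAPDH, the glycolytic enzyme, had a mean of 25.2 CPM (reads scaled to the effective library size) of its own in untreated cells and 34859 CPM at the feature ENSG00000269968 opposite it. The actin gene ACTB had a mean of 17.4 CPM of its own in untreated cells and no opposite reading. A coding gene was therefore described in 2 readings, its own count and the count at its opposite feature. An opposite feature had to overlap exons of that coding gene, and of no other coding gene, by at least 30 bases. It also had to have enough reads to be tested, and of several such features the one with the most reads was taken. This gave 3958 genes. Of these genes, 2668 had a higher mean CPM at the opposite feature than of their own over the 8 libraries, and 1270 a lower one. The own count had to pass no such choice, which favours the opposite reading in that comparison. The kit's strand is not given in the labels, and which reading is the gene's own RNA was not tested. If strands were counted in reverse, the own counts given here would be signal from the other strand. A feature's own transcript cannot be told apart from that of the gene opposite it. A lower value can come from fewer cells or from less RNA per cell, and these cannot be told apart either. The labelled cell type was checked on squamous epithelial markers, whose summed own counts lay between 7100 and 7651 CPM in untreated and between 8035 and 8753 CPM in treated libraries. KRT8, a keratin of simple epithelia whose count is also the reading of KRT18, made up most of that sum. The other 19 markers together held 123 to 242 CPM in untreated and 142 to 175 CPM in treated libraries, so the check rests mainly on an epithelial keratin and does not single out squamous cells. Fibroblast markers summed to 22.5 to 32.7 CPM over the 8 libraries with 6 of 15 markers at 0, immune cell markers to 10.8 to 28.4 CPM with 5 of 15 at 0, and endothelial markers to 6.23 to 12.6 CPM with 4 of 12 at 0. No marker of these lists was called changed, where 2.9% of all features were called either way.

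In cells given CPA with synta-66, 248 features were higher and 185 lower than in untreated cells, 1.66% and 1.24% of the 14911 tested. To be called, a feature had to pass edgeR's quasi-likelihood test at an adjusted p of 0.05 and change by 1.5-fold or more. Among the 3958 coding genes read at opposite features, 114 were higher (2.88%) and 51 lower (1.29%). Among 8937 coding genes taken by their own counts, 152 were higher (1.7%) and 113 lower (1.26%), together 2.97%. The values against CPA alone given below come from the same fit, in which 1.94% of features were called higher and 2.82% lower than with CPA. The median log2 fold change was -0.06 over all features, 0.01 at opposite features and -0.06 by own counts. Of all 14911 features, 680 (4.56%) were higher with no overlap of the groups and 693 (4.65%) lower. The largest rises and falls of coding genes were named only where the groups did not overlap, so that trait is no support for them. The readings seldom gave the same call: of 142 genes called at the opposite feature whose own count could be tested too, 13 had the same call there, 1 the opposite call and 128 none.

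**Figure D1:**
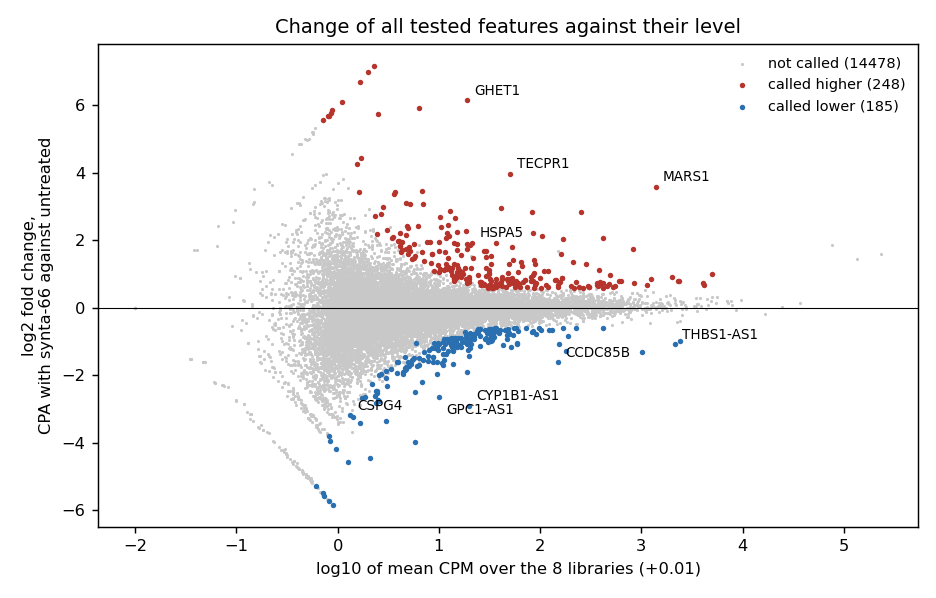
Each point is 1 of the 14911 features tested, with log10 of its mean CPM over the 8 libraries on the horizontal axis and its log2 fold change, CPA with synta-66 against untreated, on the vertical axis. Red points are the 248 called higher and blue points the 185 called lower, and MARS1 stands apart as an abundant feature with a log2 fold change of 3.59.

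Genes of the endoplasmic reticulum were among the rises at opposite features. Of 8 sensors and effectors of endoplasmic reticulum stress read at opposite features, 5 were higher and none lower, with a median log2 fold change of 2.13. They were BHLHA15, TMEM50B, ZNF165, WIPI1 and EIF2AK3, of which only EIF2AK3 encodes a sensor named above. By their own counts none of 19 members of this list was called, beside 2.9% of all features. Of 17 chaperones and folding enzymes read at opposite features, 8 were higher and none lower, with a median of 0.69. By own counts 7 of 34 were higher and 1 was lower, with a median of 0.46. These lists were chosen with earlier results of these data known, so their counts, medians and direction are descriptions and no test. Without the 3 libraries that had the most non-unique alignments (treated replicates 1 and 4 and untreated replicate 3), 5 sensors and effectors and 8 chaperones were higher at opposite features, and 4 chaperones by own counts.

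BHLHA15, a transcription factor of secretory cells, was read at TECPR1 (chromosome 7, 98214624 to 98252232), which overlaps its exons by 834 bases. The 4 untreated libraries held 4.77, 7.58, 5.92 and 5.55 CPM there. The 4 treated libraries held 99.9, 113, 83 and 81.6 CPM, and the groups did not overlap. With CPA alone the mean was 23.5 ± 5.93 CPM (SD, n = 4). The log2 fold change against untreated was 3.98 ± 0.19 (SE, adjusted p = 1.05e-19), and against CPA alone it was 2.01 ± 0.17 (adjusted p = 2.13e-12). TECPR1 is itself a coding gene, and BHLHA15 had 0 reads of its own in each untreated library.

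EIF2AK3 encodes PERK, the sensor kinase that slows translation during endoplasmic reticulum stress. Its opposite feature ENSG00000225420 (chromosome 2, 88538720 to 88575610) held 155, 181, 163 and 143 CPM in the untreated libraries and 662, 720, 673 and 618 CPM in the treated ones. No treated library came near an untreated one. The mean with CPA alone was 316 ± 7.76 CPM, and the log2 fold change against untreated was 2.06 ± 0.08 (adjusted p = 1.13e-22). The zinc finger gene ZNF165 went from 61.4 ± 3.93 to 443 ± 43.6 CPM at ENSG00000272009, with 165 ± 19.1 CPM in CPA alone. WIPI1, which acts in the formation of autophagosomes, went from 4.27 ± 0.975 to 19.6 ± 3.01 CPM. TMEM50B, a membrane protein gene, is read at the coding gene IFNGR2, which went from 9.33 ± 1.78 to 73 ± 2.98 CPM. The own count of TMEM50B was 132 ± 6.96 and 107 ± 7.5 CPM and was not called (log2 fold change -0.29, adjusted p = 0.0961), so the rise at IFNGR2 has no counterpart in it.

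Among the chaperones, HSP90B1 and HYOU1 had the clearest rises. HSP90B1 encodes the calcium-binding chaperone GRP94 and was read at UQCC6 (chromosome 12, 103940763 to 103965708). That feature held 23, 19.5, 18.7 and 20.7 CPM in the untreated libraries and 155, 169, 144 and 116 CPM in the treated ones, a log2 fold change of 2.83 ± 0.14 (adjusted p = 4.19e-19). The own count of HSP90B1 was called in the same direction, from 56.3 ± 14.9 to 105 ± 25.1 CPM (0.91 ± 0.16, adjusted p = 0.000126), although its lowest treated library, at 75.3 CPM, lay below the highest untreated one, at 78 CPM. HYOU1, a chaperone of the HSP70 family, was read at ENSG00000255114 (chromosome 11, 119044188 to 119045493), which held 394, 381, 390 and 346 CPM in untreated and 1315, 1320, 1278 and 1154 CPM in treated libraries. Its log2 fold change was 1.75 ± 0.08 against untreated (adjusted p = 1.55e-21) and 1.03 ± 0.07 against CPA alone (adjusted p = 4.65e-14).

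More abundant members rose by less. Calreticulin (CALR), a lectin chaperone that binds calcium, went from 1406 ± 144 to 2661 ± 128 CPM at ENSG00000267458, with a log2 fold change of 0.92 ± 0.07. The disulfide isomerases P4HB and PDIA6 had 0.81 ± 0.07 and 0.75 ± 0.07, and the prolyl isomerase PPIB had 0.69 ± 0.07. In each of these genes CPA alone lay between the other groups, as for PDIA6 with 3013 ± 185 CPM untreated, 3998 ± 148 with CPA and 5054 ± 83.2 with CPA and synta-66. The thioredoxin-domain gene TXNDC11 went from 20 ± 4.07 to 42.4 ± 9.39 CPM. ERO1B, an oxidase of disulfide formation, was at 0, 0.199, 0.312 and 0 CPM in untreated and 2.83, 4.27, 4.65 and 1.3 CPM in treated libraries. Its feature RNU2-70P is a pseudogene of a small nuclear RNA whose reads can come from near-identical copies, so that value is uncertain.

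By own counts, HSPA5 (BiP, the main HSP70 chaperone of the endoplasmic reticulum, chromosome 9, 125234853 to 125241382) held 8.1, 8.37, 5.3 and 13.4 CPM in untreated and 30.3, 27.4, 31.4 and 46.9 CPM in treated libraries. The lowest treated value was above the highest untreated one. The log2 fold change was 1.94 ± 0.29 (adjusted p = 6.56e-06), while CPA alone was at 9.82 ± 5.68 CPM. A mean of 36 reads stood behind the untreated value and 108 behind the treated one. HSPA5, XBP1 and SDF2L1 have no opposite reading here. If strands were counted in reverse, their own counts in each group would be signal from the other strand. The co-chaperone DNAJB9 went from 18 ± 4.1 to 41 ± 2.9 CPM (1.19 ± 0.18, adjusted p = 1.03e-05) and CALR from 29.7 ± 8.9 to 54.1 ± 4.06 CPM. XBP1, the transcription factor spliced by IRE1, was at 12.7 ± 1.95 and 6.3 ± 3.2 CPM by its own count and was not called (-0.95 ± 0.32, adjusted p = 0.095). SDF2L1 was at 0.703 ± 0.605 and 3.8 ± 2.89 CPM and was not called (adjusted p = 0.122), while leaving out treated replicate 2 gave a call (adjusted p = 0.0232). The own rise of CALR lost its call without the 3 libraries named above (0.70, adjusted p = 0.086).

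**Figure D2:**
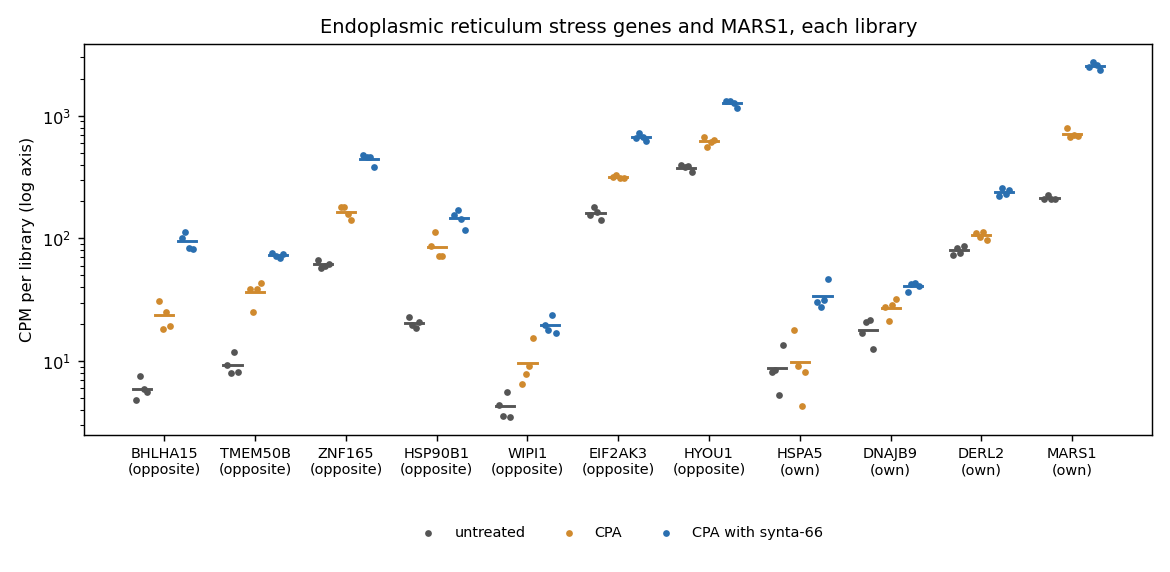
CPM of each library on a log axis for 7 genes of the endoplasmic reticulum lists read at opposite features and for HSPA5, DNAJB9, DERL2 and MARS1 by own counts. Points are libraries and bars the mean of each group. In BHLHA15 the means step from 5.96 CPM untreated to 23.5 with CPA and 94.5 with CPA and synta-66, and in HSPA5 from 8.8 to 9.82 and 34 CPM.

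The promoters of several of these genes hold the endoplasmic reticulum stress element, the letters CCAAT and CCACG set 9 bases apart, to which ATF6 and the general factor NF-Y are known to bind. They are shown because this element is the known route from the sensors to chaperone genes. Each line gives the 250 bases before the RefSeq start of the gene (GRCh38.p14), 5′ to 3′ on the gene's strand, with the element in capitals. The windows are chr9:125241344-125241593 for HSPA5 (minus strand), chr12:103930160-103930409 for HSP90B1 (plus), chr19:12938359-12938608 for CALR (plus) and chr2:10812786-10813035 for one of the starts of PDIA6 (minus). In HSPA5 and PDIA6 the element reads forward. In CALR it lies on the other strand, and HSP90B1 has one copy in each orientation.
HSPA5: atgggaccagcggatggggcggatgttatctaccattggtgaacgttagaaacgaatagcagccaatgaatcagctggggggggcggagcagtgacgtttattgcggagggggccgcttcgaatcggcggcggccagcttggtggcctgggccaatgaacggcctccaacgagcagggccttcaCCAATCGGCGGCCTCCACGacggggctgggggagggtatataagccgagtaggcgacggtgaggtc
HSP90B1: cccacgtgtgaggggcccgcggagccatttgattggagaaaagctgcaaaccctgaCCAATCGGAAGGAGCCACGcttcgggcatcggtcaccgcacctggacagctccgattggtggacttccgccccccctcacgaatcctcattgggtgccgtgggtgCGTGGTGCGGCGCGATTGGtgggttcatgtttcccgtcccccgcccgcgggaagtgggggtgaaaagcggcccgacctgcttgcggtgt
CALR: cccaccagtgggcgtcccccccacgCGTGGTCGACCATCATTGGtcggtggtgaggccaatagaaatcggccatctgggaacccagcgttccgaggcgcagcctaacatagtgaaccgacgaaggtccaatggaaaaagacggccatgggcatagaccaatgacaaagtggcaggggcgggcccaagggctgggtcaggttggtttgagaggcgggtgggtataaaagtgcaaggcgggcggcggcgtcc
PDIA6: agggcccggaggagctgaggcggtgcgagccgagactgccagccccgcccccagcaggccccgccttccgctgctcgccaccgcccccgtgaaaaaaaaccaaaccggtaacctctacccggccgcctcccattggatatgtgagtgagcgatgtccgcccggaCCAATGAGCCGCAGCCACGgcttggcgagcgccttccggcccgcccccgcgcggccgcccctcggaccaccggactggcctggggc

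HYOU1 has no element with that spacing in its window. The window holds another motif of the unfolded protein response, TGACGTGG, the core of the element that XBP1 is known to bind. This core starts 188 bases before the gene's start (chr11:119057206-119057455, minus strand) and is shown in capitals. Its last letters, CGTGG, are the reverse complement of the CCACG in the element above. After a single letter t they are followed by CCAAT, the other part of that element. The same run, CGTGGTCCAAT, occurs again nearer the gene's start, outside a TGACGTGG match. This closer arrangement of the parts was not included in the motif search.
HYOU1: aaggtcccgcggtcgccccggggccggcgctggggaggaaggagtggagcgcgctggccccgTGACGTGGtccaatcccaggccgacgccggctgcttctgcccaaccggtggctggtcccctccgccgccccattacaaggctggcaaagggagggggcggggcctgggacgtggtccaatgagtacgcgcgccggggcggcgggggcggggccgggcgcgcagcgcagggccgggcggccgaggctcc

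Both motifs were searched on both strands of the whole RefSeq window of 300 bases. The stress element was in 25 of 27305 genes with a promoter in the RefSeq table (0.0916%). Of the 29 genes of the 4 endoplasmic reticulum lists that were higher in either reading, 27 had a promoter there, and 6 held the element (22.2%): ALG12, CALR, ERO1B, HSP90B1, HSPA5 and PDIA6. Of the 105 tested members not called higher, 87 had a promoter and 3 held it (3.45%): CANX, CRELD2 and XBP1. Of genes read at opposite features it was in 5 of 97 called higher (5.15%) and 0 of 43 called lower. The TGACGTGG core was in 253 promoters (0.927%), in 2 of the 27 (7.41%, HYOU1 and TXNDC11) and in 13 of the 87 (14.9%). A match describes letters in a window and does not show that a factor was bound.

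Genes of degradation and secretory transport rose in smaller numbers. Of 11 members of endoplasmic reticulum-associated degradation read at opposite features, 2 were higher and none lower, with a median log2 fold change of 0.35. SYVN1, the membrane ubiquitin ligase HRD1, held 17.4, 15.6, 17.8 and 10.8 CPM in untreated and 49.8, 44.3, 45.1 and 34.7 CPM in treated libraries at MRPL49 (1.49 ± 0.20, adjusted p = 5.97e-07), with no overlap of the groups. Its own count was at 58.1 ± 7.95 and 54 ± 6.43 CPM and was not called (adjusted p = 0.79). EDEM1, which helps to sort misfolded glycoproteins for degradation, went from 39.8 ± 10 to 81.3 ± 9.39 CPM (1.05 ± 0.14). By own counts 3 of 24 were higher and 1 lower, with a median of -0.16. The derlin DERL2 rose from 79.9 ± 5.87 to 241 ± 15.8 CPM (1.59 ± 0.10, adjusted p = 3.45e-16), and by the rule used here the same count is the reading of MIS12, a kinetochore gene opposite it by 301 bases. HERPUD1, a stress-induced membrane protein of this system, was at 0.208, 0, 0 and 0 CPM in untreated and 1.62, 4.49, 7.35 and 6.07 CPM in treated libraries, and was called higher (adjusted p = 6.92e-05), with too few untreated reads for a fold.

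Of 19 genes of the translocon, glycosylation and transport to the Golgi read at opposite features, 4 were higher and none lower, with a median of 0.38. MCFD2, a partner of the cargo receptor LMAN1, went from 270 ± 20.2 to 452 ± 12.5 CPM. The mannosyltransferase ALG12 had 0.63 ± 0.10 and PGM3, of nucleotide sugar synthesis, 0.71 ± 0.08. SRPRB, a subunit of the signal recognition particle receptor, had 0.91 ± 0.22, and its call ended without treated replicate 3 (adjusted p = 0.0657). By own counts 3 of 51 were higher, among them LMAN1 (1.53 ± 0.582 to 8.14 ± 3.25 CPM) and the signal peptidase subunit SPCS3 (4.69 ± 1.21 to 15.4 ± 6.36 CPM). SEC16A, which marks the exit sites of the endoplasmic reticulum and is outside these lists, went from 13.9 ± 3.49 to 44.1 ± 6.72 CPM at C9orf163 (1.69 ± 0.19).

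The feature annotated as MARS1, the methionyl-tRNA synthetase, had the lowest adjusted p of the comparison. Its own count was 209, 225, 209 and 208 CPM in the untreated and 2510, 2760, 2617 and 2378 CPM in the treated libraries. The log2 fold change was 3.59 ± 0.08 (adjusted p = 5.56e-33), and CPA alone lay between at 713 ± 54.4 CPM, 1.85 ± 0.07 below the treated group. This feature (chromosome 12, 57475445 to 57517569) overlaps exons of 2 coding genes on the other strand, DDIT3 by 355 bases and ARHGAP9 by 519 bases, so the rule read neither gene there. DDIT3 encodes CHOP, the stress transcription factor that acts with ATF4. The own count of DDIT3 was 129 ± 22.9 and 155 ± 18.4 CPM and was not called (0.26 ± 0.11, adjusted p = 0.244), and ARHGAP9 was at 0.529 ± 0.146 and 0.438 ± 0.614 CPM. Whether the reads at MARS1 are its own or those of a gene opposite it cannot be told apart in these counts. If strands were counted in reverse, the reads at MARS1 would come from the strand of DDIT3 and ARHGAP9. The own count of DDIT3 would then not be CHOP RNA.

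Of 10 genes of the ATF4 and CHOP response read at opposite features, 5 were higher and none lower, with a median log2 fold change of 0.64. Without the 3 libraries with the most non-unique alignments 3 were higher. The transcription factor CEBPB held 24.3, 19.9, 30.2 and 42.1 CPM in untreated and 49.4, 74.4, 88.7 and 69.4 CPM in treated libraries at CEBPB-AS1, a log2 fold change of 1.30 ± 0.18 (adjusted p = 8.94e-07). It also rose by its own count, from 8.93 ± 2.27 to 21.6 ± 4.42 CPM (1.28 ± 0.26, adjusted p = 0.00103). MTHFD2, of mitochondrial folate metabolism, rose by 0.67 ± 0.07 and PYCR1, of proline synthesis, by 0.76 ± 0.09. The lipoprotein receptor VLDLR had 1.01 ± 0.23 and was not called without the 3 libraries (0.76, adjusted p = 0.175). The cystine transporter SLC7A11 was at 238 ± 37 untreated, 125 ± 3.41 with CPA and 365 ± 40.5 CPM with CPA and synta-66. Its log2 fold change of 0.62 ± 0.09 against untreated lay near the 1.5-fold minimum, and it fell short of it without treated replicate 1 (0.55), without untreated replicate 1 (0.57) and without the 3 libraries (0.58). ATF4 itself was at 3.71 ± 1 and 5.07 ± 2.93 CPM by its own count and was not called (adjusted p = 0.798). ATF4 has no opposite reading, so the limit on strand stated above applies to that count.

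Of 31 members of that list with a tested own count 2 were higher, CEBPB and SHMT2, a serine and glycine pathway enzyme (5.5 ± 2 to 17.4 ± 3.47 CPM). The same SHMT2 count reads NDUFA4L2, whose exons it overlaps by 33 bases. Of 19 tRNA synthetases with a tested own count 4 were higher and none lower, with a median of 0.24, and 2 were higher without the 3 libraries. The 4 include MARS1, whose reads may be those of a gene opposite it. KARS1 overlaps exons of TERF2IP on the other strand by 176 bases, and WARS1 those of WDR25 by 287 bases. At opposite features 1 of 9 synthetases was higher, with a median of 0.06. WARS1, the tryptophanyl-tRNA synthetase, rose in both readings, from 356 ± 31.9 to 557 ± 31.4 CPM at its opposite feature (0.65 ± 0.08) and from 11.3 ± 2.53 to 32.5 ± 7.79 CPM by its own count (1.49 ± 0.24). SARS1 and KARS1 were called at adjusted p = 0.0424 and 0.0253, and each lost its call in several fits with a library left out, KARS1 for example without treated replicate 3 (adjusted p = 0.126) and SARS1 without untreated replicate 2 (adjusted p = 0.185).

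**Figure D3:**
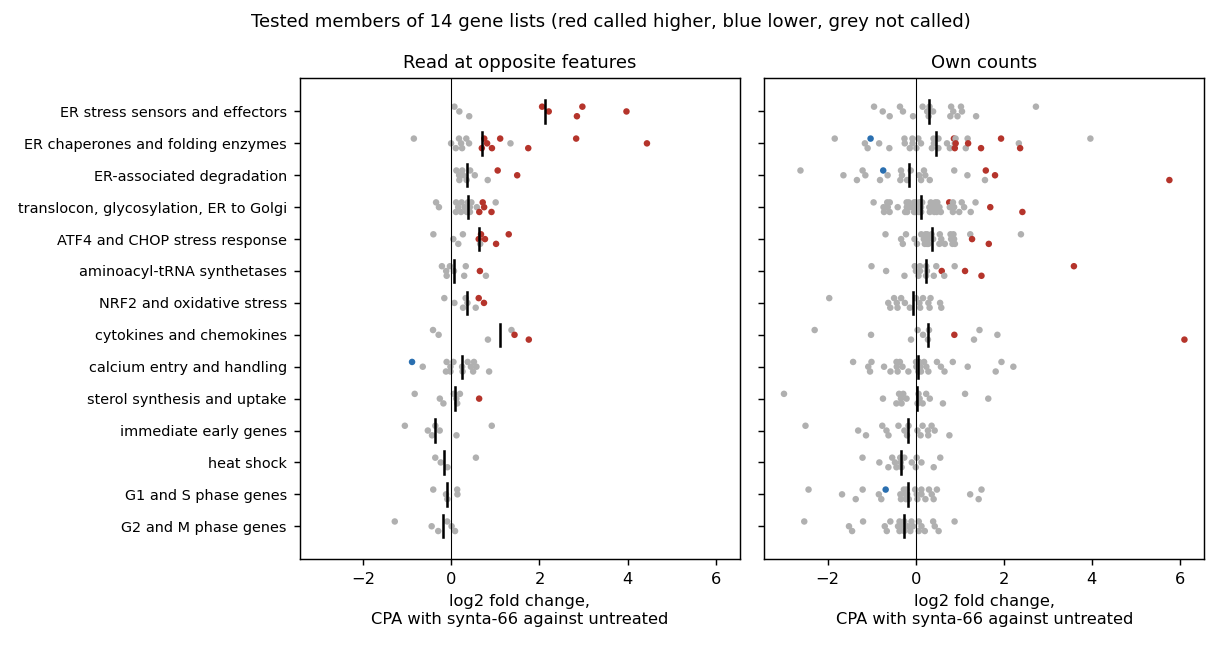
Log2 fold change, CPA with synta-66 against untreated, of each tested member of 14 gene lists, at opposite features (left) and by own counts (right), with a bar at each list's median. Red points are called higher, blue lower and grey not called, and CXCL8 (untreated at 0) is drawn at its fitted value. The median of the 8 endoplasmic reticulum stress sensors and effectors at opposite features is 2.13 beside 0.01 for all 3958 genes. The lists were chosen with earlier results of these data known.

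Other lists held single rises or none. Of 6 cytokines read at opposite features 2 were higher. The inflammatory cytokine IL6 held 7.27, 8.77, 12.5 and 6.72 CPM in untreated and 34, 28.8, 31.1 and 24.3 CPM in treated libraries (1.76 ± 0.22, adjusted p = 1.72e-07), with CPA alone at 21.3 ± 1.85 CPM and 0.47 ± 0.20 below the treated group (adjusted p = 0.18). Its own count was at 6.77 ± 4.05 and 7.43 ± 2.83 CPM (adjusted p = 0.927). PTX3, a secreted pattern recognition protein, went from 29.6 ± 5.12 to 79.5 ± 7.13 CPM at VEPH1, by an overlap of only 71 bases. The chemokine CXCL8 had 0 reads of its own in each untreated library and 2.43, 1.35, 1.47 and 3.47 CPM in the treated ones. The hypoxia gene ANKRD37 went from 23.7 ± 7.43 to 83 ± 17.4 CPM at UFSP2 (1.81 ± 0.17), while its own count missed the call (0.27 ± 0.10, adjusted p = 0.134). GCLC, the enzyme of glutathione synthesis, rose by 0.74 ± 0.11, and PHLDA1, a target of growth factor signalling, by 0.85 ± 0.07. The EGFR ligand amphiregulin (AREG) rose by its own count from 4.56 ± 3.01 to 19.1 ± 6.5 CPM (2.07 ± 0.38, adjusted p = 0.00023), with CPA alone at 4.1 ± 1.95 CPM. No immediate early gene was called among 7 read at opposite features and 18 by own counts, no heat shock gene among 4 and 16, and no gene of G2 and M phase among 6 and 25. Of all features 2.9% were called either way, and of genes read at opposite features 4.17%. An absence of calls in lists this short lies near those shares and is no result about these classes.

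Of the calcium entry and handling list, none of 29 genes was called by own counts, which lies near the 2.9% called over all features. Of 15 read at opposite features none was higher and 1 was lower, beside 1.29% lower of all genes so read. It was the small calcium-binding protein S100A6 (38.4 ± 3.99 to 20.5 ± 3.2 CPM, -0.89 ± 0.17, adjusted p = 0.00031). S100A6 was read at the noncoding feature ENSG00000238279, which overlaps its exons by only 37 bases. ATP2A2, the gene of the SERCA pump that CPA blocks, was at 7.98 ± 3.47 and 14.2 ± 2.72 CPM by its own count and missed the call (0.84 ± 0.31, adjusted p = 0.151). Leaving out untreated replicate 4 gave a call (1.15, adjusted p = 0.0355). ORAI1, the pore of store-operated entry, was at 1.46 ± 0.597 and 3.37 ± 1.21 CPM (adjusted p = 0.512). The own count of ORAI2 was 30 ± 4.16 and 22.8 ± 3.94 CPM (adjusted p = 0.309). The store sensor STIM1 was at 5.22 ± 1.18 and 3.03 ± 1.63 CPM by its own count (adjusted p = 0.555) and at 2.94 ± 1.13 and 5.31 ± 2.3 CPM at STIM1-AS1 (adjusted p = 0.419). ORAI3 and STIM2 were below 1 CPM in each group mean and were not tested. ATP2A2 and ORAI1 have no opposite reading, so their low own counts may not measure these genes' RNA if strands were counted in reverse.

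Among the genes that fell was CYP1B1, a cytochrome P450 that the aryl hydrocarbon receptor is known to induce. Its opposite feature CYP1B1-AS1 (chromosome 2, 38073447 to 38231651) overlaps its exons by 678 bases. The untreated libraries held 45.7, 28.5, 32.4 and 33.9 CPM there and the treated ones 4.85, 3.14, 4.9 and 6.51 CPM. Each untreated library was above each treated one. The log2 fold change was -2.90 ± 0.23 (adjusted p = 7.07e-13), while CPA alone was at 36.2 ± 3.35 CPM, not called against untreated (0.04, adjusted p = 0.959). The own count of CYP1B1 was at 0.96 ± 0.471 CPM in untreated cells and had 0 reads in each treated library. The other 2 receptor targets read at opposite features and the 7 by own counts were not called. Over all genes read at opposite features 4.17% were called, and over all features 2.9%, so few calls would fall among so few genes.

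Among other falls, FAT2, PAK6 and OTUB2 had CPA alone near the untreated level. FAT2, an atypical cadherin, held 238, 204, 176 and 221 CPM in untreated and 102, 92.1, 94.8 and 112 CPM in treated libraries, with CPA alone at 216 ± 37.9 CPM. Its log2 fold change was -1.07 ± 0.11 against untreated (adjusted p = 1.15e-09) and -1.11 ± 0.11 against CPA alone (adjusted p = 3.79e-10). The kinase PAK6 went from 13.4 ± 3.39 to 4.31 ± 1.61 CPM (-1.59 ± 0.32) and the deubiquitinase OTUB2 from 43.5 ± 3.2 to 22.1 ± 6.26 CPM at DDX24 (-0.99 ± 0.18). Their means with CPA alone were 13 ± 1.71 and 42.4 ± 6.56 CPM. By own counts the proteoglycan CSPG4 went from 9.85 ± 1.34 to 1.7 ± 0.802 CPM (-2.50 ± 0.44, adjusted p = 0.00013), with a mean of 40 reads untreated and 5.75 treated, and the deubiquitinase USP24 from 17 ± 4.55 to 4.97 ± 2.14 CPM (-1.69 ± 0.31, adjusted p = 0.000198). CCDC85B had 208, 242, 237 and 210 CPM of its own in untreated and 56.6, 71.9, 82.3 and 84.2 CPM in treated libraries (-1.60 ± 0.14, adjusted p = 6.24e-12). Its CPA mean of 180 ± 50.3 CPM was widely spread and lay between the means of the other groups.

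In other falls the mean with CPA alone lay between those of the other groups. THBS1, the matrix protein thrombospondin, held 2704, 3047, 3131 and 2793 CPM at THBS1-AS1 in untreated and 1323, 1447, 1339 and 1407 CPM in treated libraries. Its log2 fold change was -1.08 ± 0.07 (adjusted p = 2.49e-15), and the mean with CPA alone was 2040 ± 180 CPM. DGAT2, of triglyceride synthesis, was at 29.8 ± 5.81 untreated, 16.9 ± 3.78 with CPA and 7.84 ± 1.47 CPM with CPA and synta-66 (-1.90 ± 0.24). HMGA2, an architectural chromatin protein active in embryonic and tumour cells, held 251, 237, 339 and 202 CPM at HMGA2-AS1 in untreated and 115, 90.8, 107 and 114 CPM in treated libraries. Its log2 fold change was -1.28 ± 0.16 (adjusted p = 2.36e-07), and with CPA alone it was at 211 ± 95.9 CPM. VIPR1, a neuropeptide receptor, fell by 1.09 ± 0.15 on the log2 scale. By their own counts HMGA2 (16.8 ± 3.57 and 14.4 ± 5.87 CPM) and THBS1 (25.1 ± 10.6 and 17.8 ± 4.01 CPM) were not called, with adjusted p = 0.788 and adjusted p = 0.334, and neither was FAT2 (-0.83, adjusted p = 0.441).

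**Figure D4:**
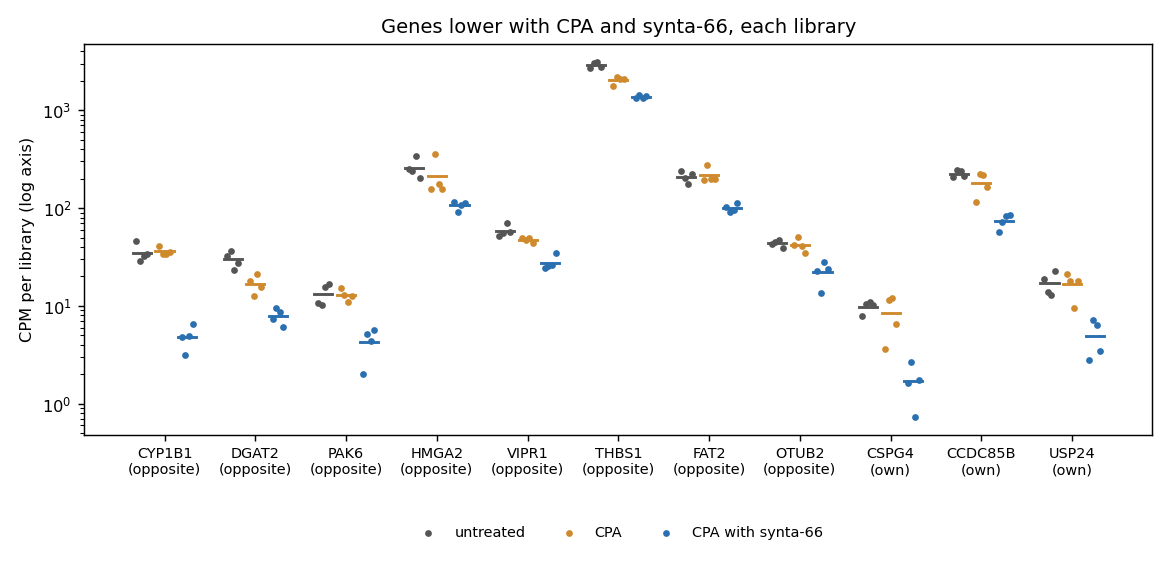
CPM of each library on a log axis for 11 genes lower in CPA with synta-66 than in untreated cells, with points for libraries and bars for group means. For CYP1B1 the untreated mean of 35.1 CPM and the CPA mean of 36.2 CPM lie together and the mean with CPA and synta-66 is 4.85 CPM, while THBS1 steps from 2919 to 2040 and 1379 CPM.

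Some genes that CPA alone changed strongly were not called against untreated cells when synta-66 was present. They were named because CPA alone moved them, so their CPA values are a description. MYADM, a membrane protein, held 15.4, 11.4, 13.4 and 12 CPM in untreated and 10.1, 8.99, 16.9 and 18.7 CPM in treated libraries, against 287 ± 25.5 CPM with CPA alone. The treated and untreated ranges overlapped, with a log2 fold change of 0.04 ± 0.18 (adjusted p = 0.952). CEMIP, of hyaluronan turnover, was at 1.81 ± 0.588 untreated, 35.8 ± 4.2 with CPA and 1.78 ± 1.24 CPM with CPA and synta-66, and the tubulin-binding TPPP at 0.743 ± 0.92, 26.5 ± 4.9 and 0.619 ± 0.362 CPM. Vimentin (VIM), the intermediate filament protein, was at 2815 ± 252, 5312 ± 445 and 2753 ± 180 CPM, with -0.03 ± 0.08 for treated against untreated (adjusted p = 0.916). The MAPK phosphatase DUSP6 was at 877 ± 85.9, 379 ± 29.1 and 922 ± 76.2 CPM (0.07 ± 0.08, adjusted p = 0.768). A p that misses the threshold does not show that the levels are equal.

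NR4A1, a nuclear receptor of the immediate early class, was below its untreated mean. Its feature NR4A1AS held 2.49, 4.39, 7.79 and 5.26 CPM in untreated and 2.02, 1.35, 2.45 and 3.9 CPM in treated libraries, against 53.5 ± 7.91 CPM with CPA alone. The log2 fold change of -1.06 ± 0.35 missed the call (adjusted p = 0.0863) and gained it without treated replicate 4 (-1.31, adjusted p = 0.0398) or untreated replicate 1 (-1.30, adjusted p = 0.0211). Other CPA genes stayed above the untreated level. NEDD9, a scaffold of focal adhesions, was at 9.56 ± 0.807 untreated, 49.1 ± 5.58 with CPA and 21.2 ± 6.93 CPM with CPA and synta-66, and was called both higher than untreated (1.18 ± 0.21, adjusted p = 0.000165) and lower than CPA (-1.18 ± 0.19, adjusted p = 1.83e-05). Its feature ENSG00000247925 overlaps its exons by only 53 bases. HMGCS1, of sterol synthesis, was at 415 ± 40.9, 901 ± 57 and 641 ± 38.7 CPM, with 0.63 ± 0.08 against untreated (adjusted p = 1.03e-07), and fell short of the 1.5-fold minimum without untreated replicate 1 (0.57).

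**Figure D5:**
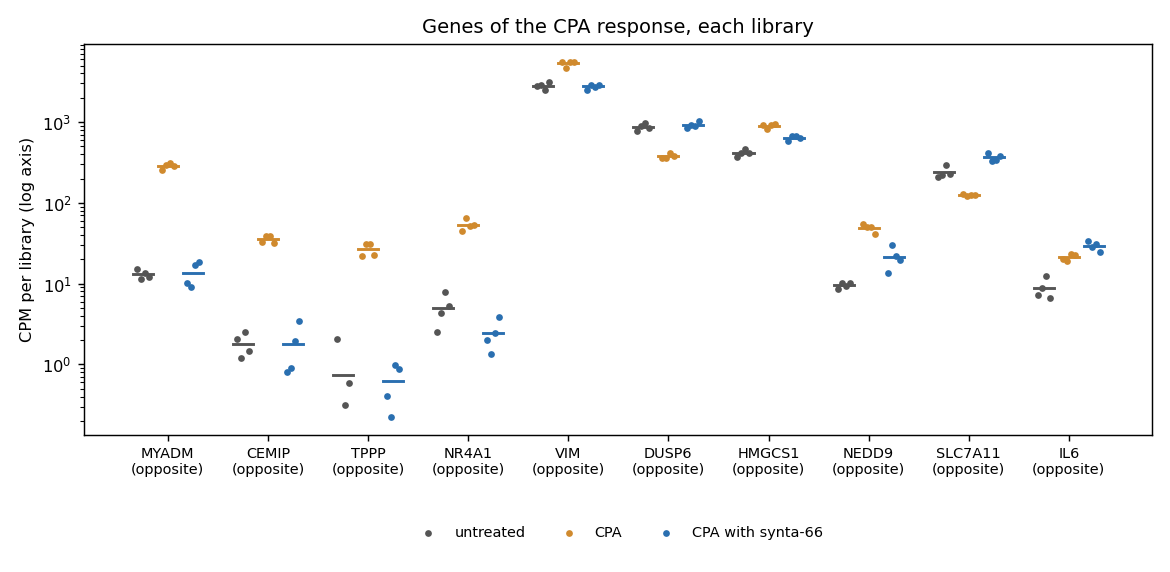
CPM of each library on a log axis for 10 genes of the CPA response read at opposite features, with points for libraries and bars for group means (values of 0 are not drawn). MYADM is at 13 CPM untreated, 287 with CPA and 13.7 with CPA and synta-66, while SLC7A11 is lowest with CPA, at 125 CPM, and highest with CPA and synta-66, at 365 CPM.

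Noncoding features that are not opposite the exons of a coding gene changed as well. GHET1, a long noncoding RNA (chromosome 7, 148987527 to 148989432), held 0, 0.399, 1.25 and 0.584 CPM in untreated and 32, 40.2, 43.6 and 32.5 CPM in treated libraries, with 11.6 ± 3.19 CPM in CPA alone. Its log2 fold change was 6.15 ± 0.39 (adjusted p = 6.07e-16), with a mean of 2 reads behind the untreated value. RHOQ-AS1 went from 2.67 ± 1.02 to 17.7 ± 4.12 CPM (2.68 ± 0.34). GPC1-AS1 held 17.2, 17.1, 20.9 and 13.7 CPM in untreated and 3.24, 2.47, 1.47 and 4.34 CPM in treated libraries (-2.66 ± 0.33, adjusted p = 1.33e-07), with CPA alone at 18.7 ± 6.14 CPM. For each of these 3 features the groups did not overlap, as for 4.56% of all features on the higher side and 4.65% on the lower.

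Of the 15 listed genes of the mitochondrial genome 4 were higher by own counts, beside 1.66% of all features. Among them was the cytochrome oxidase subunit MT-CO2 (87.1 ± 11.1 to 139 ± 25.7 CPM, 0.68 ± 0.12, adjusted p = 0.000143), with CPA alone at 153 ± 20 CPM. None of the 15 has an opposite reading, so the limit on strand stated above applies to these counts. MT-ND6 had 342 CPM in treated replicate 1 and between 86 and 205 CPM in the other treated libraries, and it was not called without that library (0.33, adjusted p = 0.461). MT-ATP6 (0.48, adjusted p = 0.0956) and MT-ATP8 (1.30, adjusted p = 0.1) also lost their calls without it. Mitochondrial ribosomal RNA took 16.1% ± 16.5 (SD, n = 4) of the reads in genes without treatment and 27.6% ± 27.6 with it, a difference of 11.5 points with p = 0.429 in a two-sided exact permutation test over 70 splits, whose smallest possible p is 0.0286. The share was highest in treated replicates 1 and 4, at 53.5% and 49.4%, and untreated replicate 3, at 39.6%, the same 3 libraries that had the most non-unique alignments. Without these 3 libraries 198 features were higher and 142 lower, and 269 of the 433 calls remained. With mitochondrial ribosomal RNA taken out of the library sizes, 249 were higher and 180 lower, and 428 of the 433 calls remained. The part of this RNA in the calls was not tested beyond that.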

How the data were processed

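RNA was sequenced from 12 HSC-3 libraries, 4 per group. Per the series design text, the authors checked reads with FastQC 0.11.5, trimmed them with Trimmomatic (0.32 there, 0.36 in the submitters' processing notes), aligned them with STAR 2.5.2a to Ensembl 84 GRCh38 and made the deposited counts per gene with HTSeq 0.6.1p1, taking the library as stranded. The deposited values are raw counts for 60675 gene rows, and the 5 closing HTSeq rows, which name no gene, were dropped first. Reads in no feature were 90.5% to 96.3% of the unique alignments.

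The deposited counts were then tested in R 4.3.3 by edgeR 4.0.16, with TMM scaling, features with at least 5 reads in 2 of the 4 libraries of a group, 1 quasi-likelihood fit of the 12 libraries, and Benjamini-Hochberg adjustment over all 14911 features. Every adjusted p in the text is from such a fit. CPM use TMM-scaled library sizes, ± after a level is the SD over 4 libraries, and ± after a log2 fold change is its SE. GENCODE 44 gave positions for 56558 rows; the 4117 others held 9.78% of gene reads. Opposite features were found with bedtools 2.31.1. Promoters are from RefSeq (GRCh38.p14), 250 bases before to 50 after each start.

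The 8 libraries were chosen by their labels, and the 33 gene lists with earlier results of these data known. Named genes are the 10 largest rises and falls by own counts and 15 at opposite features (called, no overlap of the groups, mean of at least 5 CPM), up to 4 called members of each list, 3 noncoding features each way and 24 fixed names; not all of these are described. The opposite readings of CALR, P4HB, PDIA6 and PPIB and own counts set beside an opposite reading (such as those of ANKRD37, BHLHA15, CALR, FAT2, HMGA2, IL6, SYVN1, THBS1 and TMEM50B) were added after their values were seen. The procedure was tested on simulated data, where it missed most of the small changes put in. Alternatives were DESeq2 1.42.0, other scalings and filters, a replicate block, other overlap rules and leaving out libraries.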

Additional observations from a re-analysis of the deposited data

Results flagged for a closer look

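In 11 of 243 groups of 4 libraries checked, 1 library stood apart from the other 3 by Dixon's ratio (above its 95% critical value), a rate that chance gives in about 1 in 20 groups. In CPM at opposite features, these were LRRC49 in treated replicate 2 (7.41, against 14.2 to 15.2 in the others), SLC7A11 in untreated replicate 3 (293, against 212 to 225) and TXNDC11 in treated replicate 1 (28.3, against 46.5 to 47.4). VIPR1 in treated replicate 4 was at 34.7 CPM, against 24.7 to 26, and VLDLR in the same library at 30.8 CPM, against 19.5 to 21.1.

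By own counts, ANKRD13B was at 2.94 CPM in treated replicate 3, against 7.41 to 8.24, and GADD45A at 20.8 CPM in treated replicate 4, against 9.43 to 10.9. Among untreated libraries, MARS1 was at 225 CPM in replicate 2, against 208 to 209, MYEOV at 9.04 CPM in replicate 3, against 6.58 to 6.72, and PDIA4 at 14.6 CPM in replicate 4, against 3.19 to 4.67. TAPT1-AS1 was at 41.2 CPM in untreated replicate 4 and at 0.208 to 1.4 CPM in the other untreated libraries.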

How the results depend on the processing

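A test against 1.5-fold called 79 features higher and 23 lower, and 31 and 8 of the coding genes read at opposite features. Without the minimum fold, 185 and 86 of these genes were called, and 56 and 25 when only noncoding features were read. The other alternatives, DESeq2 (265 higher, 220 lower) among them, kept each count within 1.5 times. With 1 library left out the counts over all features ranged from 205 to 253 higher and 130 to 177 lower, and at opposite features from 101 to 116 and 39 to 54. The replicate block gave 236 higher and 182 lower. The numbers do not pair the samples: deviations of same-numbered libraries correlated at 0.02, 0.13, -0.07 and 0.08 over 6349 genes. Leaving out the 3 libraries with the most non-unique alignments was added after seeing the data. Of 117 named calls, 59 held under every alternative run and 79 under every one but the test against 1.5-fold; none changed direction. The cause of these changes was not tested. A gene not called may still have changed by less than these libraries can show. Depth limits genes with few reads, such as CSPG4 with a mean of 5.75 reads in treated libraries.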

Other observations

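Some of the changed genes lie beside another gene whose end faces theirs on the other strand. RABEPK, whose own count is on the plus strand, ends 692 bases from the end of HSPA5. LRCH3 ends 641 bases from IQCG and CCDC85B 414 bases from FOSL1. GHET1 ends 13630 bases from the end of PDIA4, and TMC3 lies 17030 bases from IL16.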
